A study of Ovis aries with 16 samples.

Results

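The microRNA miR-181a and its long non-coding host were followed through liver and muscle of 8 female sheep. The members were every row of the microRNA (miRNA) table whose name starts with MIR181, which gave MIR181A-1 and MIR181A-2 of 105 rows, and LOC105611269 among the 2973 rows of the long non-coding RNA (lncRNA) table. These are 3 of the 4920 rows in the 4 RNA classes. In the RefSeq annotation of the sheep assembly ARS-UI_Ramb_v3.0, MIR181A-2 lies within LOC105611269, and both overlap NR6A1, with OLFML2A and NR5A1 as the nearest protein-coding neighbours. MIR181A-1 lies on another chromosome between LOC105613169 and NR5A2, and no row of the lncRNA table has an annotated span that holds it. The build used for the deposited counts is not given in the sources used here, so no coordinates are reported.

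Small RNA was sequenced from liver and from muscle of each ewe, which gave 16 libraries in 4 groups of 4. The control group consisted of ewes 98, 131, 132 and 201. The prenatal T group, ewes 48, 185, 233 and 255, was labelled as exposed to testosterone before birth. The sources used here give no breed, age, dose or window of exposure. Liver and muscle of a ewe carry the same number and come from 1 animal. Tests within a tissue compare separate ewes. The main limma and ratio tests across tissues treat the liver and the muscle library of a ewe as separate. The ewe as a block, or signs flipped within ewes, served as alternatives.

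A miRNA is cut from a hairpin in a longer primary transcript and then guides a silencing complex to messenger RNAs that pair with its seed. The genes MIR181A-1 and MIR181A-2 are separate loci whose hairpins yield the same mature miR-181a, so a read of that mature form cannot by itself be assigned to either locus. MiR-181a is best known for tuning T cell receptor signalling and blood cell differentiation, for acting in myoblast differentiation, and for repressing the deacetylase SIRT1 in liver cells, where it lowers insulin sensitivity. The host, LOC105611269, is an lncRNA, and a hairpin inside such a transcript can be excised from it. The rows are named by gene, so the arms of a hairpin are not separated.

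Reads assigned to the 4 classes ran from 250251 to 887739 per liver library and from 239871 to 1819374 per muscle library. Of these, miRNAs took 206304 to 755344 reads in liver and 113522 to 885316 in muscle, and lncRNAs 38399 to 124174 and 122749 to 926854. The library numbers in the labels fall into a low and a high set. The low set, numbers under 100, held the livers of ewes 98 and 48 and every muscle library except that of ewe 255. The high set held the other 6 livers and the muscle of ewe 255, so tissue and set are nearly the same split. The liver marker miRNAs MIR148A and MIR194 together had 33851 to 56704 normalised reads in liver and 810 to 1423 in muscle. MIR133, a miRNA of striated muscle, made up 37.2 to 56.4% of the miRNA reads in muscle and 0.0290 to 0.227% in liver. MIR122 and MIR1, the best-known liver and muscle miRNAs, are not among the rows of the table used here.

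The deposited values are normalised reads, and every value divided by the smallest value of its library gave a whole number within 0.001, so reads could be recovered and compared between the tables. In the control livers MIR181A-2 had 4458 reads in ewe 98, 2463 in ewe 131, 3017 in ewe 132 and 3071 in ewe 201. The prenatal T livers had 6772 MIR181A-2 reads in ewe 48, 4203 in ewe 185, 1490 in ewe 233 and 3375 in ewe 255. In control muscle the MIR181A-2 reads were 5778, 5604, 4614 and 4302 in ewes 98, 131, 132 and 201. The prenatal T muscles had 11870, 5380, 4006 and 1696 MIR181A-2 reads in ewes 48, 185, 233 and 255. The highest and lowest of these counts belonged to the deepest and the shallowest library of each tissue.

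MIR181A-1 had nearly the same count as MIR181A-2 in every library. In control liver MIR181A-1 had 4439, 2458, 3013 and 3052 reads in ewes 98, 131, 132 and 201, and in prenatal T liver 6763, 4184, 1493 and 3358 in ewes 48, 185, 233 and 255. In muscle the MIR181A-1 counts were 5706, 5522, 4512 and 4211 in the controls and 11690, 5222, 3871 and 1648 in the prenatal T ewes. MIR181A-2 exceeded MIR181A-1 in 15 of 16 libraries, the exception being the prenatal T liver of ewe 233, and the sums over all libraries were 72099 and 71142 reads.

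The excess of MIR181A-2 over MIR181A-1 differed between the tissues. It was 0.283% ± 0.266 (SD, n = 8) of the MIR181A-2 reads in liver, with a range of -0.201 to 0.619%. In muscle it was 2.21% ± 0.778 (n = 8), with a range of 1.25 to 3.37%, so that the tissues did not overlap. The log2 ratio of MIR181A-2 to MIR181A-1 was lower in liver by 0.028, with p = 0.000155 in an exact permutation test, two-sided, over 12870 assignments, the smallest p it allows, and 0.0014 after adjustment over 9 ratio tests. With signs flipped within ewes the exact p was 0.00781, the smallest possible. This ratio was added to the tests after the data had been seen. Within the low set the difference was -0.027 (2 livers against 7 muscles, exact p = 0.0556) and within the high set -0.037 (6 livers against 1 muscle, exact p = 0.143), where the smallest possible p are 0.0278 and 0.143.

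The difference between these rows was set against counting error. If MIR181A-1 and MIR181A-2 had been counted from separate reads, the counting SD of their difference would average 83.1 reads in a liver library and 100.4 in a muscle library. The observed difference was between -0.0549 and 0.243 of that SD in liver and between 0.672 and 1.53 in muscle. MIR29B-1 and MIR29B-2, another miRNA with more than 1 locus, had identical counts in each of the 16 libraries. How reads that align to several loci were counted is not given in the sources used here, and for that reason the values of MIR181A-1 and MIR181A-2 are uncertain as measures of each locus, and they are not treated below as independent measurements.

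LOC105611269 had slightly more reads than MIR181A-2 in all 16 libraries. In control liver the host had 4714 reads in ewe 98, 2691 in ewe 131, 3310 in ewe 132 and 3444 in ewe 201. The prenatal T livers held 7261, 4555, 1676 and 3715 host reads in ewes 48, 185, 233 and 255. In control muscle the host counts were 5978, 5847, 4793 and 4494, and in prenatal T muscle 12320, 5600, 4165 and 1800, in the same order of ewes. The host count exceeded that of the nested miRNA in the shallowest and in the deepest library of each tissue.

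Summed over the libraries, LOC105611269 had 76363 reads, 4264 more than MIR181A-2. The MIR181A-2 count equalled 91.5% ± 1.92 (SD, n = 8) of the host count in liver and 95.9% ± 0.742 (n = 8) in muscle. What the host had beyond MIR181A-2 was 8.54% ± 1.92 of its reads in liver, with a range of 5.43 to 11.1%, and 4.09% ± 0.742 in muscle, with a range of 3.35 to 5.78%. Scaled to 1000000 reads of the 4 classes, this remainder was 664 ± 83.0 in liver and 251 ± 78.9 in muscle (SD, n = 8 each). The tables hold no reads, so whether the same read was counted in both rows was not tested. Strand and overlap settings of the counting are not given either.

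**Figure D1:**
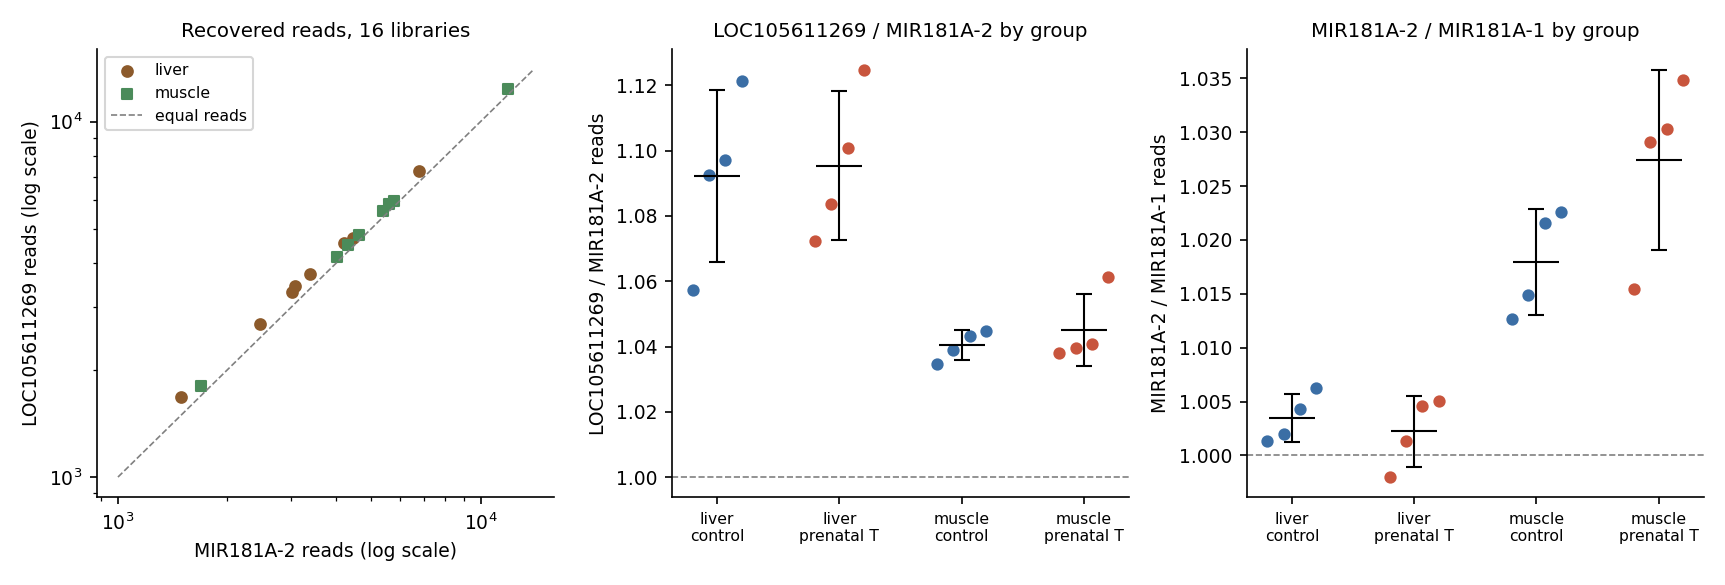
Left, recovered reads of LOC105611269 against those of MIR181A-2 in 16 libraries, both axes on a log scale, with a dashed line at equal reads. Middle and right, the ratios LOC105611269 to MIR181A-2 and MIR181A-2 to MIR181A-1 for each library (points) with the group mean and SD (n = 4), blue for control and red for prenatal T. Every library lies above the line of equal reads at left, the host ratio averages 1.09 in liver and 1.04 in muscle, and the ratio of the MIR181A rows is nearer to 1 in liver.

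The ratio of host to miRNA reads needs no scaling between libraries. LOC105611269 to MIR181A-2 was 1.09 ± 0.0229 (SD, n = 8; range 1.06 to 1.12) in liver and 1.04 ± 0.0082 (n = 8; range 1.03 to 1.06) in muscle. Its mean log2 was 0.129 in liver and 0.060 in muscle, a difference of 0.069 (two-sided exact permutation p = 0.000311, adjusted 0.0014 over 9 ratio tests). With signs flipped within ewes the exact p was 0.00781, the smallest that 8 ewes allow. The difference was 0.070 in control ewes and 0.068 in prenatal T ewes, each with an exact p of 0.0286, the smallest for 4 against 4. Inside each tissue the ratio also followed the library set. The low-set livers, of ewes 98 and 48, had the lowest liver ratios, 1.06 and 1.07. The high-set muscle, of ewe 255, had the highest muscle ratio, 1.06. Beyond these values and those below, the parts of tissue and set in this difference cannot be told apart. Within the low library set the difference fell to 0.034 (2 livers against 7 muscles, exact p = 0.0278), and within the high set it was 0.056 (6 livers against 1 muscle, exact p = 0.143, both the smallest possible).

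Measured against MIR181A-1, the host ratio differed less between tissues. LOC105611269 to MIR181A-1 was 1.10 ± 0.0226 in liver and 1.07 ± 0.0140 in muscle (SD, n = 8 each), a log2 difference of 0.041 (exact permutation p = 0.00699, adjusted 0.0210). It was 0.0071 (exact p = 0.5) within the low library set and 0.019 (exact p = 0.571) within the high set. The part of the library set in this difference cannot be told apart from the tissue beyond these values.

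With all libraries, prenatal T moved none of these ratios past the threshold. In liver, host to MIR181A-2 was 1.10 ± 0.0229 in prenatal T and 1.09 ± 0.0264 in control ewes (SD, n = 4 each), a log2 difference of 0.0044 (exact permutation p = 0.829, adjusted 0.857). In muscle it was 1.04 ± 0.0110 and 1.04 ± 0.0046, a log2 difference of 0.0063 (exact p = 0.629, adjusted 0.808). The host to MIR181A-1 ratio of muscle was 1.07 ± 0.0157 in prenatal T and 1.06 ± 0.0083 in control ewes (log2 difference 0.020, exact p = 0.143, adjusted 0.257). The MIR181A-2 to MIR181A-1 ratio of muscle was 1.03 ± 0.0084 and 1.02 ± 0.0049 (log2 difference 0.013, exact p = 0.0857, adjusted 0.193). Without the prenatal T muscle of ewe 48 these last differences were 0.029 and 0.019, each with an unadjusted exact p of 0.0286, the smallest for 3 against 4. With 4 against 4 the smallest possible exact p is 0.0286.

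Other lncRNA rows show how far a count near that of the nested miRNA is shared by such hosts. Among lncRNA rows whose annotated span holds a miRNA of the table, 4 had at least 100 reads for both: LOC105611269, LOC105605445 with MIR221, LOC105602212 with MIR125B, and LOC105606646 with 49 miRNAs of the imprinted DLK1-DIO3 region. The ratio of LOC105605445 to MIR221 was 1.24 ± 0.0401 in liver and 1.24 ± 0.0339 in muscle (SD, n = 8 each). LOC105602212 to MIR125B was 0.468 ± 0.0863 and 0.198 ± 0.0452, and LOC105606646 to its miRNAs 0.0965 ± 0.0201 and 0.230 ± 0.0439. The ratio for LOC105611269 was the steadiest of the 4, with a coefficient of variation over libraries of 2.10% in liver and 0.783% in muscle, against 3.24% and 2.74% for the MIR221 pair. The MIR221 pair rests on fewer reads, 8999 for the host and 7324 for the miRNA, against 76363 and 72099. Its ratio therefore carries more counting error, and the part of that error in the coefficients was not tested.

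The log2 ratio of the MIR181A-2 pair was lower than that of the MIR221 pair by 0.18 in liver and 0.25 in muscle, in 8 of 8 libraries of each tissue. It was higher than that of the MIR125B pair by 1.25 and 2.43, again in all libraries of each tissue. These tests were added beyond the planned ones and were not made for LOC105606646. All 4 gave an exact sign-flip p of 0.00781, the smallest that 8 libraries allow, adjusted 0.00781 over the 4. In contrast, LOC106991099, which spans MIR29A, had 90 reads over the 16 libraries beside 50160 for the miRNA. LOC114114896, which spans MIR143, had 11 beside 261926. LOC114117256, which spans MIR29B-1, had 17 beside 527, and LOC114116445, which spans MIR30A, had 0 beside 86979.

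By deposited normalised reads, MIR181A-2 in control liver was at 5925 in ewe 98, 3199 in ewe 131, 3046 in ewe 132 and 2988 in ewe 201. In prenatal T liver it was at 3331 in ewe 48, 3584 in ewe 185, 2452 in ewe 233 and 2995 in ewe 255. The liver of ewe 98 stood apart, and without it the control livers lay within the range of the prenatal T livers. Control muscle had 5694, 4564, 3972 and 4644 normalised reads of MIR181A-2 in ewes 98, 131, 132 and 201, and prenatal T muscle 5820, 4846, 4092 and 4461 in ewes 48, 185, 233 and 255. These muscle groups overlapped almost completely.

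The host was at 4323, 3422, 3312 and 3033 normalised reads in control liver and at 4595, 3571, 3043 and 3624 in prenatal T liver, in the same order of ewes. In muscle it was at 5214, 5143, 4112 and 5216 in control and 5476, 5715, 4291 and 4400 in prenatal T ewes. In both tissues the groups overlapped. Within the class, by reads and not per length, MIR181A-2 ranked 23rd of 105 miRNAs in control liver and 14th in control muscle. LOC105611269 ranked 5th of 2973 lncRNA rows in both.

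**Figure D2:**
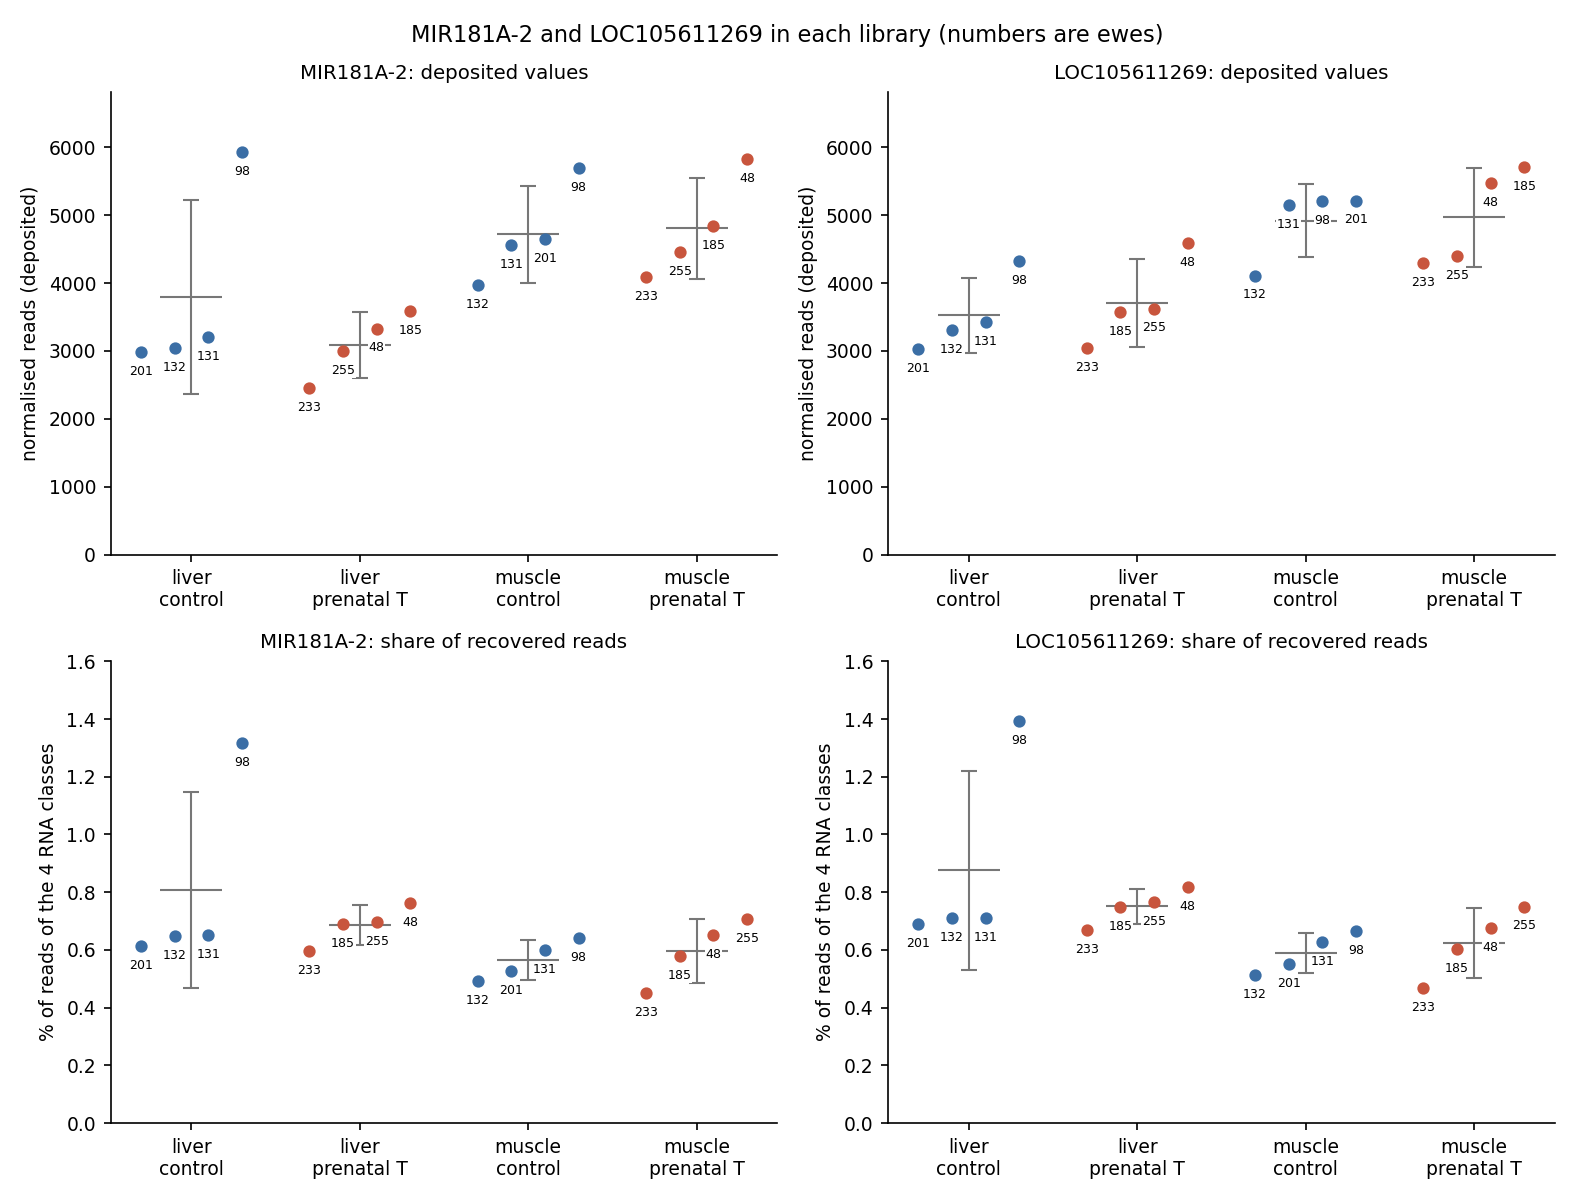
Normalised reads as deposited (top) and share of the reads of the 4 RNA classes in percent (bottom) of MIR181A-2 (left) and LOC105611269 (right) in each library, labelled by ewe, with the group mean and SD (n = 4), blue for control and red for prenatal T. Deposited values are scaled separately in each table and tissue. The control liver of ewe 98 is highest for MIR181A-2 on both scales, at 5925 normalised reads and 1.32%, while its host value of 4323 normalised reads is below that of ewe 48.

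The limma test for prenatal T called none of the 3 members in either tissue. In liver, MIR181A-2 averaged 3091 ± 489 normalised reads after prenatal T and 3790 ± 1427 in control ewes (SD, n = 4 each), a log2 fold change of -0.24 (SE 0.24, 95% interval -0.75 to 0.26, limma adjusted p = 0.959). MIR181A-1 gave -0.24 as well. The host was at 3708 ± 647 and 3523 ± 558 normalised reads, a log2 fold change of 0.071 (SE 0.21, 95% interval -0.39 to 0.53, limma adjusted p = 0.890). Deposited miRNA and lncRNA values are scaled separately, so the signs of these fold changes are not compared. Per reads of the 4 classes the log2 fold change was -0.16 for MIR181A-2 and -0.16 for the host. The background in liver was 0% of 81 miRNAs and 0% of 121 lncRNAs called. No miRNA or lncRNA in liver had an unadjusted limma p under 0.05, and edgeR and DESeq2 on recovered reads called none.

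In muscle, MIR181A-2 averaged 4805 ± 744 normalised reads after prenatal T and 4718 ± 716 in control ewes (SD, n = 4 each), a log2 fold change of 0.026 (SE 0.15, 95% interval -0.30 to 0.35, limma adjusted p = 0.936). LOC105611269 was at 4970 ± 730 and 4921 ± 541, a log2 fold change of 0.0097 (SE 0.18, 95% interval -0.38 to 0.40, limma adjusted p = 0.983). The background in muscle was 0% of 64 miRNAs, with 5 at an unadjusted p under 0.05, and 3.51% of lncRNAs, that is 4, with 7 at an unadjusted p under 0.05, all 4 lower in prenatal T. The intervals of all 3 members in both tissues include 0 and leave room for changes of either sign, so they do not show that the groups are alike.

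The prenatal T effect on MIR181A-2 was lower in liver than in muscle by 0.27 on the log2 scale (difference -0.27, SE 0.29, limma adjusted p = 0.841), and the difference for LOC105611269 was 0.061 (SE 0.25, limma adjusted p = 0.941). Both differences rest on deposited values, which are scaled separately for miRNAs and lncRNAs. Neither passed the threshold, and the background was 0% of miRNAs and of lncRNAs, with 2 and 5 at an unadjusted p under 0.05. The size of the MIR181A-2 fold change in liver rested largely on 1 library. Without the control liver of ewe 98 the fold change was -0.0078, and it ran from -0.34 to -0.14 when any other single liver was left out.

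**Figure D3:**
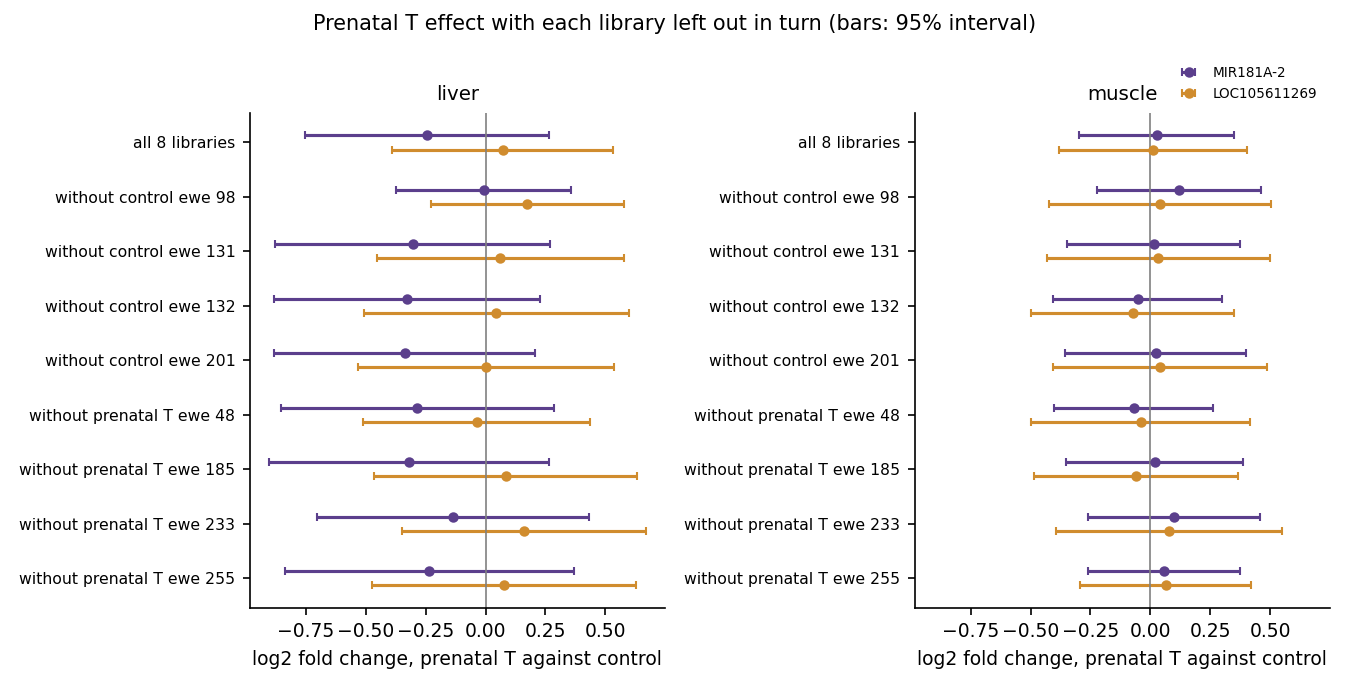
Log2 fold change of prenatal T against control (points) with 95% limma intervals (bars) for MIR181A-2 and LOC105611269 in liver and muscle, with all 8 libraries of the tissue and with each left out in turn. All intervals cross 0, and the liver value of MIR181A-2 moves from -0.24 to -0.0078 without the control liver of ewe 98.

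The control liver of ewe 98 carried about 2 times the miR-181a of the other livers. Its 5925 normalised reads of MIR181A-2 were 1.95 times the median of the other 7 livers, 3046, whose range was 2452 to 3584. As a share of the reads of the 4 classes it had 1.32%, against 0.595 to 0.763% in the others. As a share of miRNA reads it had 1.65% (95% Wilson interval 1.603 to 1.700%, counting error only), against 0.722 to 0.897%.

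The host was also high by share in this liver, and less so by normalised reads. In the liver of ewe 98 it took 1.39% of the reads of the 4 classes, 1.96 times the median of the other 7 livers (0.711%, range 0.670 to 0.818%), and 8.32% of the lncRNA reads, 1.77 times their median (range 4.36 to 5.85%). Its normalised value, 4323, was only 1.26 times their median of 3422 and below the 4595 of ewe 48. As deposited, each miRNA read of this liver was worth 1.33 normalised reads and each lncRNA read 0.917, a ratio of 1.45, compared with 0.777 to 1.11 in the other livers. For that reason the deposited values put the host at 0.730 of MIR181A-2 in this liver and at 0.996 to 1.38 in the other 7, although the reads put it at 1.06 and at 1.07 to 1.12.

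MIR133 was also high in this liver, at 816 normalised reads and 0.227% of the miRNA reads, against 123 to 255 and 0.0290 to 0.0639% in the other 7. The share of MIR181A-2 in the 4 classes was 0.450 to 0.707% in the muscle libraries, below the 1.32% of this liver. By median-of-ratios scaling the order was the reverse, with 3342 in this liver and 6449 to 8864 in control muscle. MIR150, the detected member of 4 lymphoid and myeloid markers, was at 662 normalised reads and 0.184% of the miRNA reads there, and at 326 to 657 and 0.0878 to 0.155% in the other livers. MIR194, a hepatocyte marker, was at 8037 and 7982 to 12437. The part of these markers in the miR-181a value was not tested, and in whole tissue a change in cell numbers and a change of RNA per cell cannot be told apart.

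Values of host and miRNA were correlated over the ewes, more closely by share than by deposited value. By share both rows are divided by the same total and their ratio is nearly constant. An r near 1 follows from that ratio and is not a separate result. Per reads of the 4 classes, Pearson's r between LOC105611269 and MIR181A-2 was 0.999 in each tissue (n = 8, exact permutation p = 2.48e-05, the smallest possible), with a Spearman rho of 1. By deposited values r was 0.674 in liver (exact p = 0.0587, adjusted 0.0587 over 3 correlations; rho 0.738, exact p = 0.0458, adjusted 0.0688). In muscle it was 0.767 (exact p = 0.0313, adjusted 0.0470; rho 0.881, exact p = 0.00724, adjusted 0.0217). Deposited values keep the same read ratio, changed only by the separate scaling of the classes. The worth of a miRNA read over that of a lncRNA read ran from 0.777 to 1.45 in liver and from 0.883 to 1.13 in muscle. The r by deposited values depends on this spread and is not a separate result either. Without the 2 libraries farthest from the median, r was 0.477 in liver (n = 6, exact p = 0.344) and 0.929 in muscle (n = 6, exact p = 0.00278), so the liver value was lower without ewes 98 and 233, over fewer ewes and a narrower range. Both rows come from the same library, so they share its depth, and whether they share reads was not tested.

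Over the 8 ewes, MIR181A-2 in liver and in muscle had a Pearson's r of 0.714 (exact p = 0.0268, adjusted 0.0470 over the 3 correlations) and a rho of 0.690 (exact p = 0.0694, adjusted 0.0694). Without the 2 ewes farthest from the median in liver r was 0.545 (n = 6, exact p = 0.261), which is no longer past the threshold over fewer ewes and a narrower range. It was added after the data had been seen.

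Liver and muscle were set on a common scale by median-of-ratios factors computed within each class. MIR181A-2 was then at 3342, 1963, 1772 and 1929 scaled reads in the livers of control ewes 98, 131, 132 and 201 and at 8864, 7167, 6449 and 7118 in their muscle. In prenatal T ewes 48, 185, 233 and 255 it was at 2315, 2331, 1685 and 2066 in liver and at 9423, 8186, 6255 and 6850 in muscle. In each group every muscle library lay above every liver library. The share of all miRNAs that separate the tissues in this way was not counted. LOC105611269 was at 3564, 3618, 3131 and 3006 in control liver and 5791, 5536, 4538 and 6167 in control muscle. In prenatal T ewes the host was at 4402, 3516, 2766 and 3352 in liver and 5649, 6426, 4909 and 4165 in muscle, where the muscle of ewe 255 fell below the liver of ewe 48.

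On this scale MIR181A-2 was lower in liver than in muscle, by 1.76 on the log2 scale in control ewes (log2 difference -1.76, SE 0.21, 95% interval -2.21 to -1.30, limma adjusted p = 1.22e-05) and by 1.86 in prenatal T ewes (-1.86, SE 0.18, limma adjusted p = 6.79e-07). It was higher in muscle in 4 of 4 ewes of each group, a count not made for the other miRNAs. MIR181A-1 gave -1.73 and -1.83. LOC105611269 differed less, with a log2 difference of -0.72 in control ewes (SE 0.21, 95% interval -1.19 to -0.26, limma adjusted p = 0.0125) and -0.59 in prenatal T ewes (SE 0.20, limma adjusted p = 0.0319). An alternative with the library set as a covariate was added after the data had been seen. In control ewes the low set held all 4 muscles and only the liver of ewe 98, so the tissue term rested on that liver. It was -1.14 for MIR181A-2 and -0.62 for the host, and no call is read from either value. In prenatal T ewes MIR181A-2 was at -1.76 (limma adjusted p = 8.87e-07), and the limma adjusted p of the host was 0.106.

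Most of the class differed between the tissues, so a call is near the background. Called were 76.3% of 76 miRNAs in control and 62.7% of 75 in prenatal T ewes, with 34.2% and 26.7% lower in liver. Among lncRNAs 62.2% of 127 and 50.4% of 119 were called, with 31.5% and 22.7% lower in liver.

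The direction depended on the scaling. Per reads of the class, MIR181A-2 differed by -0.26 (limma adjusted p = 0.328) in control and -0.57 (limma adjusted p = 0.0101) in prenatal T ewes, while the host was higher in liver by 2.17 (limma adjusted p = 2.43e-05) and 2.05 (limma adjusted p = 2.86e-06). Per reads of the 4 classes both were above 0, MIR181A-2 at 0.44 and 0.22 (limma adjusted p = 0.0814 and 0.251) and the host at 0.51 and 0.28 (limma adjusted p = 0.108 and 0.181). The median of all miRNAs tested in control ewes moved with the scaling too, from 0.13 by median of ratios to 1.62 per class and 2.33 per 4 classes, and that of lncRNAs from -0.047 to 2.70 and 1.24.

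Relative to the median of its class the position of each member moved far less. The difference of MIR181A-2 minus the miRNA median was -1.89, -1.89 and -1.88 in control ewes and -2.06, -2.07 and -2.13 in prenatal T ewes under the 3 scalings. For LOC105611269 and the lncRNA median it was -0.67, -0.53 and -0.73 in control and -0.67, -0.51 and -0.72 in prenatal T ewes. The rows had nearly equal reads within a library, while the median miRNA and the median lncRNA moved by different amounts between liver and muscle.

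**Figure D4:**
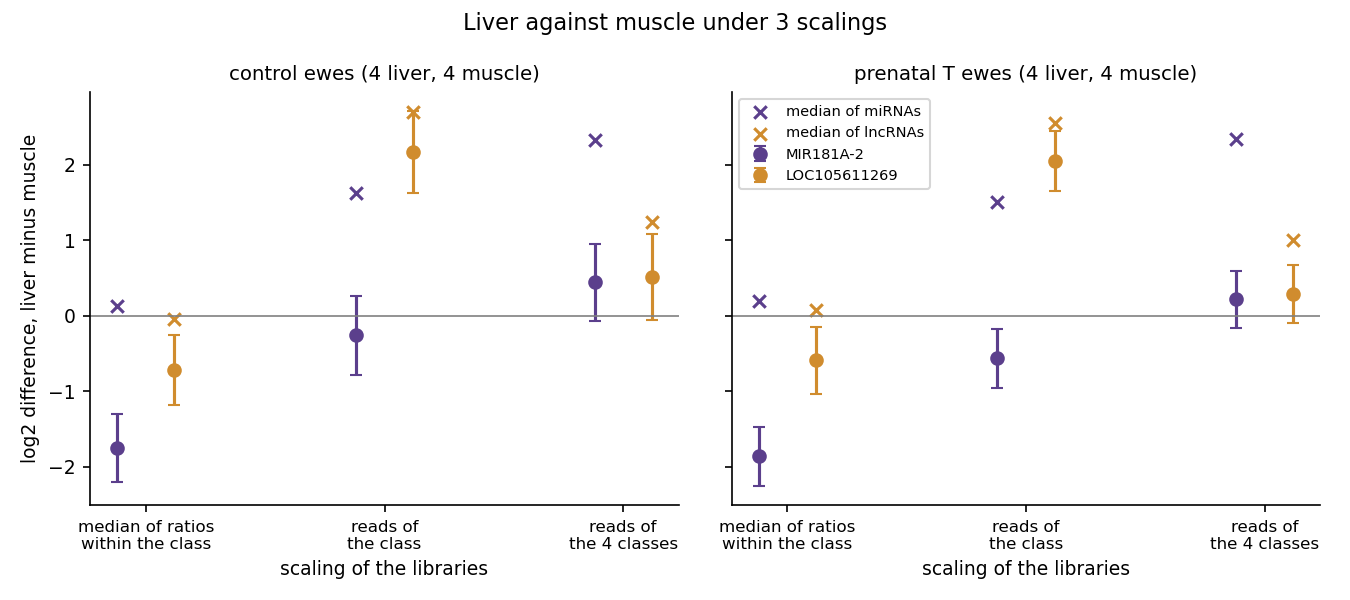
Log2 difference between liver and muscle (points, bars 95% limma intervals) of MIR181A-2 and LOC105611269 in control and prenatal T ewes under 3 scalings of the libraries, with the median of all miRNAs and lncRNAs tested (crosses). MIR181A-2 moves from -1.76 to 0.44 in control ewes, and its difference from the miRNA median stays between -1.89 and -1.88.

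By share of the reads of the 4 classes, MIR181A-2 ordered the groups as control liver (0.808% ± 0.340), prenatal T liver (0.686% ± 0.0689), prenatal T muscle (0.597% ± 0.111) and control muscle (0.566% ± 0.0681, SD, n = 4 each). Each gap between neighbours was smaller than the larger SD of the pair. By median-of-ratios scaling, which was made separately for control and prenatal T ewes, muscle was above liver by more than the SDs, at 7399 ± 1030 against 2251 ± 732 in control and 7678 ± 1416 against 2099 ± 302 in prenatal T ewes. The host followed the same order by share, at 0.876% ± 0.345, 0.751% ± 0.0615, 0.624% ± 0.121 and 0.588% ± 0.0697.

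The features whose profile was most like that of MIR181A-2 were found by Pearson's r over 16 libraries after each tissue's mean was subtracted, among 68 miRNAs and 82 lncRNAs. MIR181A-1 had an r of 0.999. It was followed by MIR133 (0.661), MIR106B (0.545), MIR380 (0.468), MIRLET7B (0.443) and MIR103 (0.442), where the median miRNA had -0.0957. Without the liver of ewe 98 these 5 values were 0.226, 0.0716, 0.0967, 0.0220 and 0.240, so they rested on that library.

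Among lncRNAs, LOC114111256 (0.795), LOC114112870 (0.645), LOC105609509 (0.639), LOC105603432 (0.630) and LOC114111311 (0.562) came first, and LOC105611269 ranked 7th with 0.559. Without the liver of ewe 98 the host rose to 0.687, while the others fell to 0.549, 0.277, 0.213, 0.375 and 0.393. LOC105609509 overlaps ORC1, which encodes a subunit of the origin recognition complex. The points of these correlations share library, depth and scaling factors, and they are given as a description.

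Lists of miRNAs with related roles were counted beside miR-181a. None of the rows tested was called by limma for prenatal T, which was 0 of 3 immune rows (MIR17, MIR21 and MIR150, of 9 names), 0 of 5 muscle differentiation rows (of 13 names) and 0 of 9 hepatic lipid and insulin rows (of 15 names), in each tissue. MIR29B-1 and MIR29B-2, with identical counts, are separate rows in both the muscle and the hepatic list. The 5 and 9 rows therefore stand for 4 and 8 names. In muscle the median log2 fold changes of these lists were -0.28, -0.071 and -0.20, beside -0.045 over all 64 miRNAs, and in liver 0.061, 0.12 and 0.12 beside 0.0052 over all 81. MIR21, a miRNA of stromal and immune cells, had -0.60 in muscle (SE 0.28, limma adjusted p = 0.559), and MIR143, a miRNA of smooth muscle, -0.51 (SE 0.23, limma adjusted p = 0.559).

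Between tissues the counts of these lists changed with the scaling, as those of all miRNAs did. In control ewes, limma called 32 miRNAs higher in liver and 26 lower of 76 by median of ratios, 58 and 4 of 76 per class, and 71 and 4 of 77 per 4 classes. In prenatal T ewes these counts were 27 and 20 of 75, then 55 and 7 of 78, then 71 and 2 of 80.

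In the counts below, MIR29B-1 and MIR29B-2 count as separate muscle and hepatic rows although their reads were identical. In control ewes, 4 of 5 muscle differentiation rows were lower in liver and 0 higher by median of ratios, beside 34.2% of all miRNAs lower, but 1 was lower and 2 higher per class, and 1 lower and 4 higher per 4 classes. In prenatal T ewes 1 of these rows was lower and 0 higher, then 1 and 2, then 1 and 4. MIR133 had the lowest value in control ewes, a log2 difference of -11.1 by median of ratios. The hepatic rows of control ewes went from 2 higher and 3 lower to 6 and 0 and then 9 and 0 of 9, and those of prenatal T ewes from 2 and 1 to 6 and 0 and then 9 and 0. MIR148A, which regulates cholesterol uptake in liver, was at 3.59 by median of ratios in control ewes. The immune rows had 2 higher, MIR17 and MIR21, and 1 lower, MIR150, under all 3 scalings in control ewes. In prenatal T ewes the immune counts were 1 higher and 1 lower, then 2 and 1, then 2 and 0.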

How the data were processed

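Small RNA libraries of liver and muscle were prepared from Trizol total RNA with a NEBNext small RNA kit, per the labels' protocols. Tools listed in the submitters' processing notes are featureCounts 1.6.1, STAR 2.6.0c and cutadapt 3.2. Their roles, the build and the strand and multi-mapping settings were not given in the sources used here. Deposited by the authors was a signal in normalised reads, each library having been divided by its own factor within a class and a tissue. Reads were recovered by dividing each library by its smallest value above 0, and 100% of the values came out whole within 0.001.

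Prenatal T was tested with limma 3.58.1 (R 4.3.3, variance trend) on log2(deposited value + 1) for features with a mean of at least 5, so folds of low features are understated. Adjustment was by Benjamini-Hochberg over all features of the class, with a threshold of 0.05. Tissues were compared on recovered reads scaled jointly, and ratios and correlations by two-sided exact permutation. Alternatives were edgeR 4.0.16, DESeq2 1.42.0, other pseudocounts, filters and scalings, the ewe as block and each library left out. Scripts were tested on simulated data.

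The members and the lists were chosen with earlier results of these data known. Named features were the MIR181 rows, LOC105611269, the 5 miRNAs and 5 lncRNAs most like MIR181A-2, lncRNAs with at least 100 reads that hold a miRNA with at least 100, and lists of immune, muscle and hepatic miRNAs. MIR21, MIR143, MIR148A, MIR133, MIR29B-1, MIR29B-2 and the lncRNAs with fewer reads were singled out after their values were seen. RefSeq names matched 105 of 105 miRNA rows and 1372 of 2973 lncRNA rows. The table gives no strand, so hosts were taken by span alone, which departs from the rule. Liver and muscle are paired by the ewe numbers in the labels, which name the same animal. The correlation of their deviations from group means was -0.174 to 0.441 per ewe over miRNAs and -0.213 to 0.592 over lncRNAs. The counting intervals cover counting error only.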

Additional observations from a re-analysis of the deposited data

Results flagged for a closer look

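In 7 of the 36 sets of 4 libraries examined, the highest or lowest library lay far from the other 3, a gap that chance alone gives in about 1 in 20 such sets. Of these 7 values, 5 belong to the control liver of ewe 98 and are not independent of each other. It was highest of the control livers for MIR181A-1, with 5900 normalised reads and 1.31% of the reads of the 4 classes. The same library was highest for MIR181A-2, with 5925 normalised reads and 1.32%, and for LOC105611269, with 1.39%.

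The muscle of control ewe 132 was lowest of its group for LOC105611269, with 4112 normalised reads against 5143 to 5216 in the other 3. The muscle of prenatal T ewe 255 had the highest ratio of LOC105611269 to MIR181A-2 in its group, 1.06 against 1.04 in the other 3. It was the only muscle library of the high library set.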

How the results depend on the processing

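The tests of MIR181A-1, MIR181A-2 and LOC105611269 were repeated under other pseudocounts, filters, scalings, tools and with libraries left out, and 353 of the repeats kept the direction and the side of the threshold, while 31 reversed, 21 lost the threshold and 4 gained it. Between tissues the scaling set the direction, where the cause was not tested. Per class total, liver minus muscle was -0.26 for MIR181A-2 in control ewes and 2.17 and 2.05 for the host in control and prenatal T ewes. Per total of 4 classes it was 0.44 and 0.22 for MIR181A-2, 0.46 and 0.25 for MIR181A-1, and 0.51 and 0.28 for the host; MIR181A-1 in control ewes was -0.24 per class total. The call of the host between tissues was lost without a filter (-0.72 and -0.59, more features tested). In prenatal T ewes it was also lost with the library set as covariate (-0.37) and with edgeR (-0.50). With that covariate the host was at -0.62 in control ewes. There the value rested on the liver of ewe 98, so it is not read as a kept call.

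Leaving out 1 library, liver minus muscle of the host ran from -0.88 to -0.62 in control ewes, with 7 of 8 fits past the threshold (lost without the liver of ewe 201), and from -0.70 to -0.43 in prenatal T ewes, with 3 of 8. For MIR181A-2 it ran from -1.97 to -1.61 and from -2.01 to -1.74, with all fits past it. The prenatal T effect in liver ran from -0.34 to -0.0078 for MIR181A-2 and from -0.037 to 0.17 for the host, and in muscle from -0.070 to 0.12 for MIR181A-2, from -0.089 to 0.11 for MIR181A-1 and from -0.074 to 0.076 for the host. The difference of the effects for the host ran from -0.047 to 0.16. Per class total and per 4 classes the effect on the host in liver was -0.096 and -0.16.

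The ratio of the host to MIR181A-2 between tissues was 0.056 in the high library set, where 6 livers against 1 muscle cannot pass the threshold, and 0.063 to 0.076 with a library left out. To MIR181A-1 it was 0.049 in control ewes, 0.032 in prenatal T ewes, 0.0071 in the low set and 0.019 in the high set, none past it, though the high set could not pass, and 0.035 to 0.047 with a library left out. The prenatal T difference in liver was -0.00087 and -0.0018 in the high set and ran from -0.011 to 0.017 and from -0.012 to 0.017 for the 2 host ratios. In muscle it was -0.0012 in the low set and ran from -0.0012 to 0.0096 and from 0.011 to 0.029. For the ratio of MIR181A-2 to MIR181A-1 it ran from -0.0031 to 0.00026 in liver and from 0.0099 to 0.019 in muscle. The highest muscle values of the ratios to MIR181A-1, 0.029 and 0.019, were those without prenatal T ewe 48, and both then passed the threshold (unadjusted exact p = 0.0286). The correlation of host and miRNA in liver passed the threshold per 4 classes (0.999, which follows from their nearly constant ratio) and as deviations from group means (0.798). The latter is by deposited values and depends on that ratio and on the separate scaling of the classes. That of liver with muscle was 0.545 without the 2 farthest ewes.

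With the ewe as a replicate block, the host between tissues kept its call (limma adjusted p = 0.027 and 0.029), and the pairing changed no other call of these 3 rows. Over all features the block gave 76 and 66 lncRNAs in place of 79 and 60, and 50 miRNAs in place of 47 in prenatal T ewes. Called lncRNAs in muscle fell from 4 to 1 without a variance trend, to 0 with one spread over both tissues and to 1 to 4 with a library left out. For the difference of effects 1 lncRNA was called with edgeR and 3 without the control liver of ewe 98. Between tissues 79 and 60 lncRNAs were called, 192 and 171 per class total, 133 and 98 without a filter and, with the library set, 38 in control ewes, and 47 miRNAs in prenatal T ewes became 73 per 4 classes. Depth limits the remainder of the host, which rests on 104 to 489 reads per library.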
